A study of Oryza sativa with 15 samples.

Results

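The genes described here are rice loci whose annotation names a BTB domain (Bric-a-Brac, Tramtrack, Broad Complex) or a MATH domain (Meprin and TRAF Homology). They were taken by the words of the function text in the allele tables, and by a minimum of 30 reads in each of LR and RL or of 20 reads in each of YW and WY. The tables list 54 such loci, of which 48 passed the minimum in at least 1 pair of crosses, out of 12557 loci that passed among 13828 listed. MBTB15 (LOC_Os08g03470), a gene with both domains, is among them by name.

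BTB proteins form dimers and, through the BTB domain, many of them bind the scaffold protein CUL3 of a ubiquitin ligase. A further domain of the same protein, such as MATH, binds the substrate that the ligase marks, so that these proteins choose what is degraded. MATH-BTB genes form a family that has expanded in the grasses, often as neighbouring copies. The members with an NPH3 domain are related to NON-PHOTOTROPIC HYPOCOTYL 3, a mediator of phototropism in Arabidopsis. In endosperm, the seed tissue that feeds the embryo, some genes are imprinted: the level of an allele depends on the parent that gave it.

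The study crossed japonica and indica rice in both directions and sequenced RNA of endosperm at 5 days after fertilization, with 20 to 30 endosperms pooled in each library. In LR the mother was Liuqianxin (japonica) and the father Rongfeng (indica), and in RL the roles were exchanged. In YW the mother was Yu6 (japonica) and the father Wufeng (indica), with the roles exchanged in WY. In every cross the mother was a cytoplasmic male sterile line, and the father was the fertile maintainer line of its own strain, which shares the nuclear genome of the sterile line but not its cytoplasm. The authors pooled the 3 libraries of LR, the 3 of RL, the 2 of YW and the 2 of WY into 1 maternal and 1 paternal read count per cross and SNP, so the values below have counting error and no spread between replicates.

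There were 29714227 allele reads in LR and 34433249 in RL, and 29149713 in YW and 29302004 in WY. Endosperm holds 2 maternal genomes and 1 paternal genome, so equal use of all copies gives a maternal share of 66.7%. The median share of all tested loci was 67.1% in LR and 63.8% in RL, and 75.1% in YW and 62.9% in WY. At the typical locus YW thus stood above that dosage and WY below it, which is the japonica side in both directions. This touches every call of YW-WY. RL was also below 66.7%, and LR was close to it. Of the endosperm genes OsFIE1, NF-YB1, NF-YC12, RPBF and Wx, all 5 were listed for LR-RL. For YW-WY 4 were listed, and Wx was not. The genes OsMADS29 and OsMADS13 of maternal seed tissue were listed for neither pair. The part of RNA from maternal tissue in a maternal share could thus not be examined with them and was not tested.

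Of the 48 loci, 47 were tested in LR-RL, 46 in YW-WY and 45 in both. By annotation they comprise 14 genes with a MATH and a BTB domain, 3 with a MATH domain only, 6 with BTB and NPH3, 3 with BTB, a TAZ zinc finger and a calmodulin-binding domain, 2 with BTB and ankyrin repeats, and 20 other BTB genes. H-BTB8 and LOC_Os05g43280 passed the minimum in LR-RL only, and BTBN9 in YW-WY only. The 6 listed loci that passed nowhere are BTBN3, BTBN10, BTBN18, BTBA4, B4-BTB3 and LOC_Os06g46240. BTBZ3 lay just inside the minimum with 34 reads in LR, and BTBN3 (22 reads in LR, 37 in RL) and BTBN18 (34 in LR, 27 in RL) lay just outside. The tested members carried from 1 to 51 SNPs in LR-RL, with a median of 5, and from 1 to 50 in YW-WY, with a median of 4. The tables pair these SNPs with a locus and not with an exon or UTR, and positions are given as the tables have them, in a build that no label or header names.

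**Figure D1:**
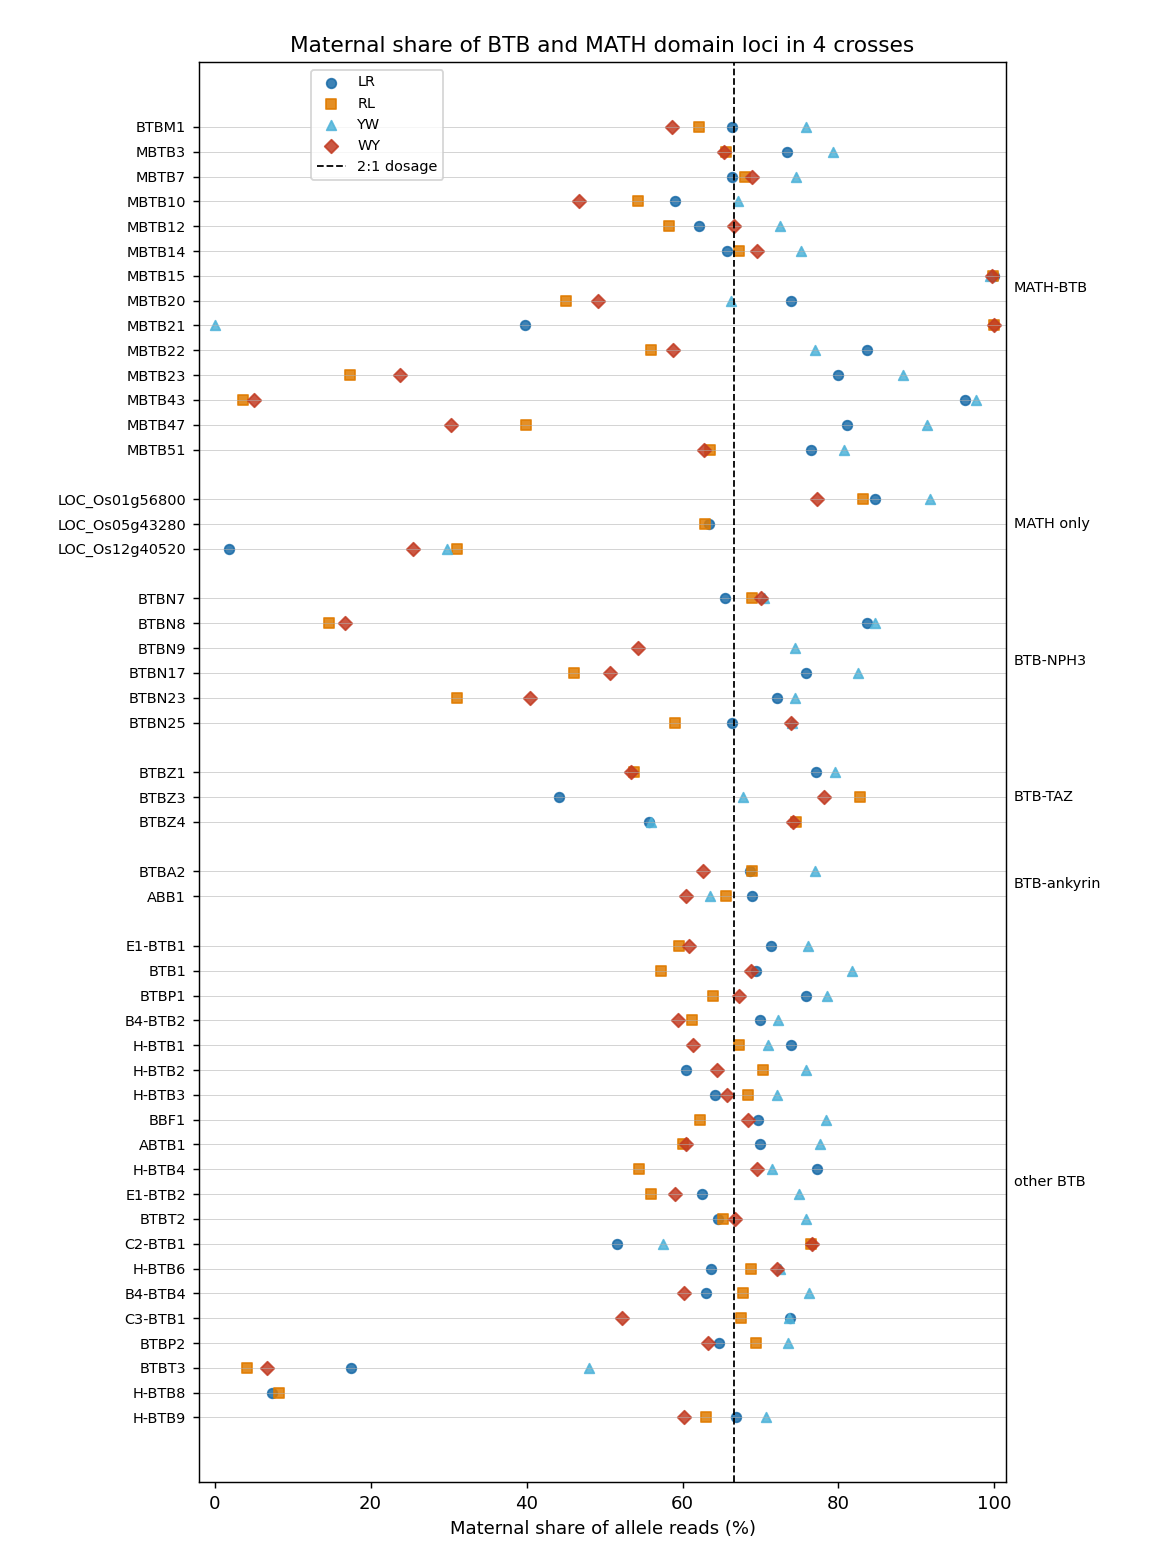
Maternal share of allele reads (x axis, %) at each BTB or MATH domain locus (rows, grouped by annotated domains), with 1 point per cross and a dashed line at the 2:1 dosage of 66.7%. MBTB15 lies at 99.4% or above in all 4 crosses, while most other loci lie near the line and the strain-dependent ones have points far apart on both sides of it.

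Calls were made per locus from an exact two-sided binomial test of each cross against 66.7%, with the larger p of the pair kept and adjusted by the Benjamini-Hochberg method over all tested loci. A maternal call has adjusted p under 0.05 and shares above 66.7% in both crosses, and a paternal call has both shares under it. Where the shares lie on opposite sides the call is japonica or indica, for the strain whose allele exceeds the 2:1 dosage in both directions. Such an allele can still have the fewer reads when it comes from the father. A strong parental call also lies at least 5 times from 2:1 in both crosses. The parent departure is the log2 ratio of maternal to paternal reads relative to 2:1, averaged over the crosses of a pair with 0.5 added to each count, and positive values are maternal.

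Among the 47 members tested in LR-RL, 2 had maternal calls, against a background of 2.02% of all tested loci, and 5 had paternal calls, against 6.75%. Japonica calls numbered 9 (background 20.1%), indica calls 4 (background 11%), and 27 members had no call (60.1% of all loci). In YW-WY, 5 of 46 members had maternal calls (background 5.94%) and 2 had paternal calls (background 3.64%). Japonica calls numbered 18 (background 32.1%) and indica calls 3 (background 5.13%), with 18 members left without a call (53.1% of all loci). With the median ratio of each cross as the null in place of 2:1, japonica calls of YW-WY numbered 8 (background 17.5%), all 8 of them at members that were japonica in both pairs against 2:1, and indica calls of LR-RL numbered 7 (background 14.2%). The shares of members called are 4.26% maternal and 10.6% paternal in LR-RL and 10.9% and 4.35% in YW-WY, so each rests on 5 loci or fewer. The median member had a parent departure of -0.07 in LR-RL, against -0.07 for all tested loci, and of 0.13 in YW-WY, against 0.15 for all. As a group the BTB and MATH domain genes thus lay close to the typical locus, and the parental calls are those of a few named genes.

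MBTB15 was read almost only from the mother in all 4 crosses. The gene lies on chromosome 8, with 7 SNPs from 1628647 to 1630288 that are the same in both tables. LR had 993 maternal and 0 paternal reads, which allows a paternal share of up to 0.302%, and RL had 715 maternal and 1 paternal read (paternal share 0.14%, Wilson 95% interval 0.0247 to 0.787). YW had 1255 maternal and 7 paternal reads (0.555%, 0.269 to 1.14), and WY had 910 and 3 (0.329%, 0.112 to 0.962). Intervals and limits of this kind cover counting error only. The maternal share was thus 100% in LR and 99.9% in RL, and 99.4% in YW and 99.7% in WY, and the strain of the mother made no visible difference to it. It was the strong maternal call among the members in each pair of crosses, 1 of 47 in LR-RL (background 0.847%; adjusted p = 1.41e-122, exact binomial test) and 1 of 46 in YW-WY (background 0.97%; adjusted p = 1.56e-152, exact binomial test).

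Every SNP of MBTB15 told the same. The maternal share per SNP ran from 99.0% to 100% in LR and RL and from 98.4% to 100% in YW and WY. The 10 paternal reads of YW and WY were spread over 5 of the 7 SNPs, with at most 3 at any SNP and cross. In the authors' deposited table, all 7 SNPs had a false discovery rate under 0.05 in both crosses of LR-RL and in both of YW-WY. The fitted departure of 8.93 in LR-RL exceeded the 6.71 of YW-WY by 2.22, a difference with a standard error of 1.27 that did not pass a Wald test on the counts (adjusted p = 0.148). With 0 or 1 paternal reads in LR and RL, that departure depends on the 0.5 added to each count.

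MBTB15 was not the most covered member. Its coverage per SNP, in reads per SNP relative to the allele reads of the cross (scaled to 1000000), was 4.77 in LR and 2.97 in RL, and 6.18 in YW and 4.45 in WY. The median member had 3.86, 3.76, 4.27 and 3.82 in the same crosses, so MBTB15 ranked between the 15th and the 27th. E1-BTB1, a BTB gene of the E1 subfamily, ranked highest in all 4 crosses with 31.3 in LR and 39.1 in RL, and 48.9 in YW and 32.9 in WY. MBTB14, another MATH-BTB gene, came next in each. Neither of these highly read genes was close to monoallelic: the maternal share of E1-BTB1 was 71.3% in LR and 59.6% in RL, and 76.1% in YW and 60.9% in WY.

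The maternal pattern of MBTB15 was not that of the loci beside it. The nearest tested locus on each side was a ribosomal protein L37 gene 7266 bases before the SNPs of MBTB15, and a Ty1-copia retrotransposon locus, LOC_Os08g03520, 15158 bases after them. The L37 gene followed the strain, with maternal shares of 87.1% in LR and 22.6% in RL, and 87.7% in YW and 25.7% in WY. LOC_Os08g03520 had 61.0% in LR and 74.3% in RL, and 68.2% in YW and 85.7% in WY, which made it indica in LR-RL and maternal in YW-WY (adjusted p = 0.0192, exact binomial test). None of the 3 tested loci on either side had a strong call in LR-RL or in YW-WY. Most loci have none: strong maternal calls were made at 0.847% and 0.97% of all tested loci in LR-RL and YW-WY. Strong paternal calls were made at 1.63% and 0.612%. BTBN17, a member with an NPH3 domain that lies near MBTB15 on the same chromosome (1723828 to 1729882), had a japonica call in both pairs.

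**Figure D2:**
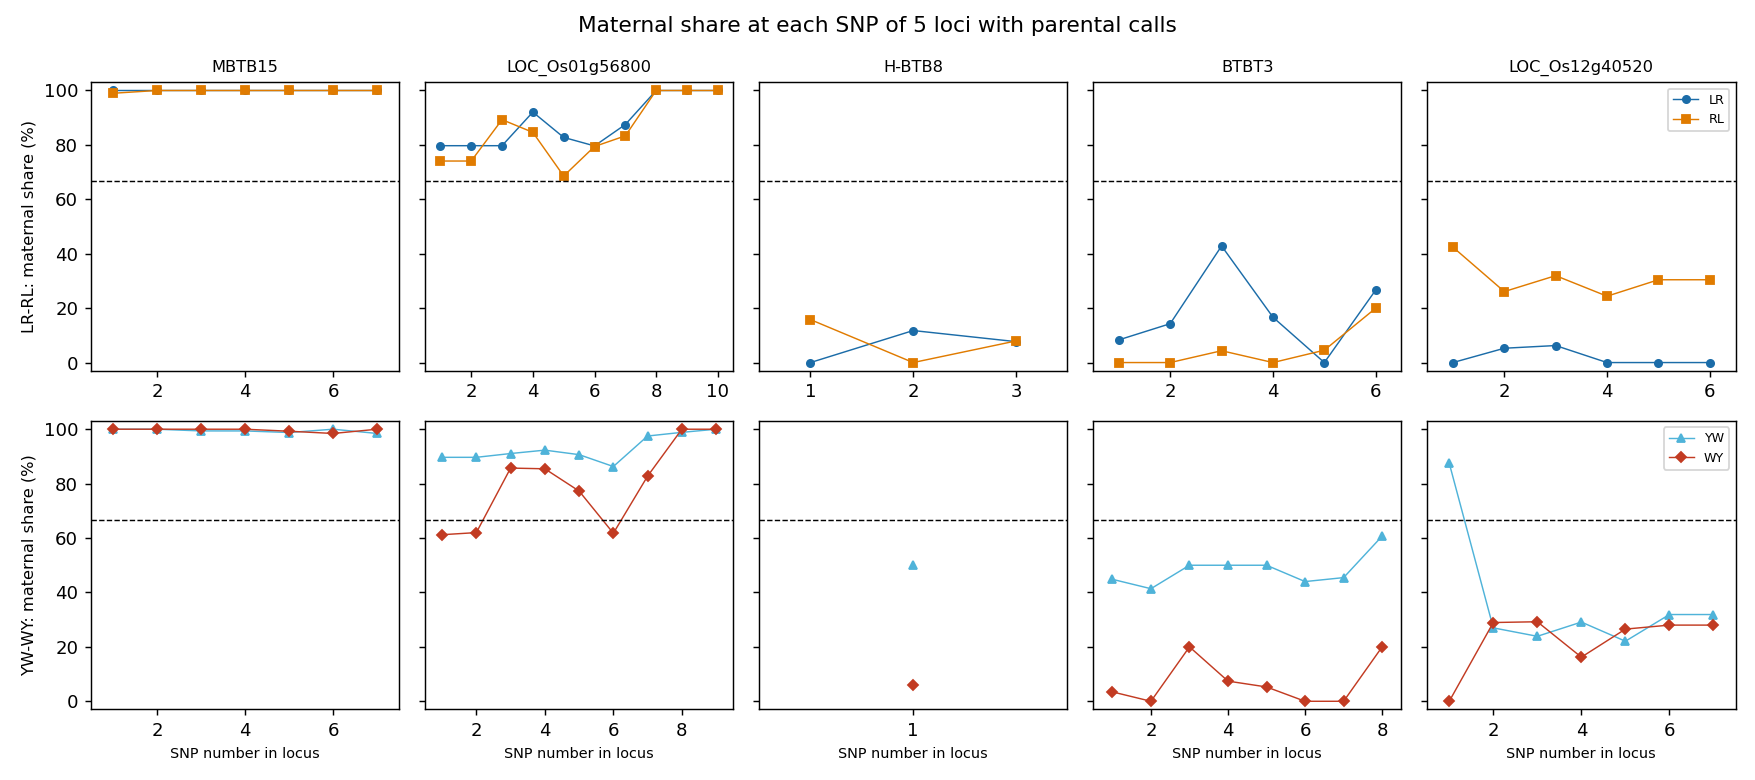
Maternal share (y axis, %) at each SNP (x axis, numbered along the chromosome) of 5 loci with parental calls, with LR and RL in the upper row and YW and WY in the lower row, and a dashed line at 66.7%. MBTB15 stays at 98.4% or above at every SNP, the 3 final SNPs of LOC_Os01g56800 reach 100% in LR and RL, and BTBT3 and H-BTB8 lie higher in YW than in the other crosses.

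The other maternal gene of both pairs was LOC_Os01g56800, which has a MATH domain and no annotated BTB domain (chromosome 1, 32774691 to 32784289). Its maternal share was 84.7% in LR (Wilson 95% interval 81.2 to 87.7), 83.1% in RL (78.9 to 86.6), 91.7% in YW (90.2 to 93.0) and 77.2% in WY (72.8 to 81.1). All 4 values lie above both 66.7% and the median locus of the cross, but far from the near-complete share of MBTB15. The adjusted p was 3.23e-11 in LR-RL and 2.85e-05 in YW-WY (exact binomial tests). The share was not even along the locus. The last 3 SNPs, from 32784099 on, had 56 maternal and 0 paternal reads in LR and 71 and 0 in RL, while the 7 SNPs before them had 82.7% in LR and 78.9% in RL. In YW-WY the last 2 SNPs had 155 maternal and 1 paternal read in YW and 30 and 0 in WY, against 90.8% and 75.3% at the SNPs before them. These SNP groups were chosen after their values were seen, and reads that cover neighbouring SNPs are counted at each.

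Smaller maternal departures were called in YW-WY for 3 further genes. The maternal share of MBTB14, a MATH-BTB gene on chromosome 7, was 75.1% in YW and 69.6% in WY (adjusted p = 2.11e-05, exact binomial test). H-BTB6, of the H family, had 72.6% and 72.1% (adjusted p = 0.000172), and BTBN25, with an NPH3 domain, had 74.0% and 73.9% (adjusted p = 0.0175). None of these had a call in LR-RL, where MBTB14 had 65.8% in LR and 67.3% in RL, H-BTB6 had 63.7% and 68.8%, and BTBN25 had 66.3% and 59.1%. Tested with the median ratio of the cross as the null, the 3 calls were lost, and 2 members remained maternal in YW-WY (background 3.37%). At MBTB14 the first SNP in LR-RL, at 27545596, had 98.5% maternal reads in LR and 1.6% in RL, unlike the 10 SNPs that follow it, which ran from 59.1% to 70.9% in LR and from 61.2% to 72.6% in RL. The last SNP, at 27550487, had few reads, with 5 maternal and 9 paternal in LR and 17 and 2 in RL.

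On the paternal side, 3 genes departed far from the dosage. BTBT3 (LOC_Os11g37520, chromosome 11, 22151199 to 22155210), a BTB gene with tetratricopeptide repeats, had 15 maternal and 71 paternal reads in LR (maternal share 17.4%, Wilson 95% interval 10.9 to 26.8) and 6 and 138 in RL (4.17%, 1.92 to 8.79). YW had 87 maternal and 94 paternal reads (48.1%, 40.9 to 55.3), and WY had 13 and 182 (6.67%, 3.94 to 11.1). The call was paternal in both pairs (adjusted p = 1.17e-19 in LR-RL and 1.51e-06 in YW-WY, exact binomial tests) and strong in LR-RL. It rests on counts summed over SNPs. From the most covered SNP alone, the YW-WY departure was -3.27 and was not called (adjusted p = 0.0705, exact binomial test). In LR-RL no single SNP of BTBT3 reached the minimum of 30 reads in LR. BTBT3 was among the least covered members, with a scaled coverage of 0.482 reads per SNP in LR, and BTBT2, the other member with tetratricopeptide repeats, had no call in either pair.

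H-BTB8 (LOC_Os12g08720, chromosome 12, 4447712 to 4450151), a BTB gene of the H family, had 5 maternal and 63 paternal reads in LR (7.35%, 3.18 to 16.1) and 8 and 89 in RL (8.25%, 4.24 to 15.4). It was the other strong paternal call of LR-RL, where 2 of 47 members had such a call (background 1.63%; adjusted p = 2.20e-23 for H-BTB8, exact binomial test). In YW-WY it has 1 SNP with 15 maternal and 15 paternal reads in YW and 1 and 16 in WY, below the minimum in WY, and was not tested. The other 6 members of the H family had no strong call, which is the usual case at such low background shares. Along the chromosome, OsYUCCA11 (LOC_Os12g08780), a flavin monooxygenase gene of auxin synthesis with a strong paternal call of its own, lies 65538 bases after H-BTB8 as the second tested locus. The exonuclease gene between them, LOC_Os12g08740, had 67.0% in LR and 65.1% in RL and no call.

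LOC_Os12g40520 (chromosome 12, 25069629 to 25076705) has a MATH domain and no annotated BTB domain. It had 4 maternal and 212 paternal reads in LR (1.85%, 0.722 to 4.66) and 81 and 180 in RL (31.0%, 25.7 to 36.9). YW had 131 maternal and 309 paternal reads (29.8%, 25.7 to 34.2) and WY had 88 and 257 (25.5%, 21.2 to 30.4). The paternal allele was thus the more frequent in all 4 crosses, and in LR by far the most (adjusted p = 1.62e-30 in LR-RL and 1.38e-53 in YW-WY, exact binomial tests). At 1 SNP of YW-WY, 25069629, the pattern differed, with 14 maternal and 2 paternal reads in YW and 0 and 18 in WY, whereas the other 6 SNPs had at most 31.9% maternal reads in YW and 29.2% in WY. H-BTB9 (25045953 to 25047103), a member near it on the chromosome, had no call in either pair.

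In LR-RL, 2 further paternal calls were small. The maternal share of E1-BTB2 was 62.5% in LR and 56.0% in RL (adjusted p = 0.0140, exact binomial test), while in YW-WY it was 74.9% and 59.0% and the call was japonica, which against the median ratio was lost. LOC_Os05g43280, the third gene with a MATH domain only, had 63.4% in LR and 62.9% in RL (adjusted p = 0.032), which against the median ratio of each cross was no call. The parental calls of the genes with a MATH domain only thus rest on 3 loci, and any parental call was made at 8.77% of all tested loci for LR-RL and 9.59% for YW-WY.

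A joint edgeR fit used the 2 pairs of crosses as replicates of the parent effect, with terms for cross and for strain within each pair. It called 3 of 45 members maternal (background 2.53%) and 5 paternal (background 6.73%). MBTB15 had a log2 departure of 7.61 (adjusted p = 3.47e-91, edgeR quasi-likelihood test; 4.09e-92 to 0.00997 over 5 other settings), in the maternal direction in 4 of 4 crosses. LOC_Os01g56800 had 1.50 (adjusted p = 7.96e-09, edgeR), also in 4 of 4. BTBT3 had -3.55 (adjusted p = 3.17e-27, edgeR) and LOC_Os12g40520 -3.13 (adjusted p = 6.82e-30, edgeR), both below 2:1 in 4 of 4. The fit has 1 residual degree of freedom per locus, so its spread rests on a value pooled over loci. Leaving out YW was possible only together with 1 strain effect for both pairs, since no residual degree of freedom is left otherwise. In that fit LOC_Os01g56800 had a departure of 1.25 and was not called (adjusted p = 0.114, edgeR), and the calls of MBTB15, BTBT3 and LOC_Os12g40520 remained. With 1 strain effect and YW kept in, all 4 remained.

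The remaining joint calls were at loci that follow the strain. MBTB21 was called maternal at 3.30 (adjusted p = 0.0150, edgeR), with 33 maternal and 50 paternal reads at its 1 SNP in LR, 102 and 0 in RL, 0 and 49 in YW, and 91 and 0 in WY. It was thus read mostly from the indica allele in both directions, and the call was lost in 4 of 5 other settings. BTBN8 at -1.01 (adjusted p = 0.0101, edgeR), MBTB23 at -0.76 (adjusted p = 0.00837) and BTBN23 at -0.69 (adjusted p = 0.0403) were called paternal. Each of these lost the call with 1 strain effect for both pairs, with YW kept in or left out, and in DESeq2, where 2 members remained paternal. Their departures were about as large in those fits, at -1.04 for BTBN8, -0.98 for MBTB23 and -0.73 for BTBN23 with YW left out.

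**Figure D3:**
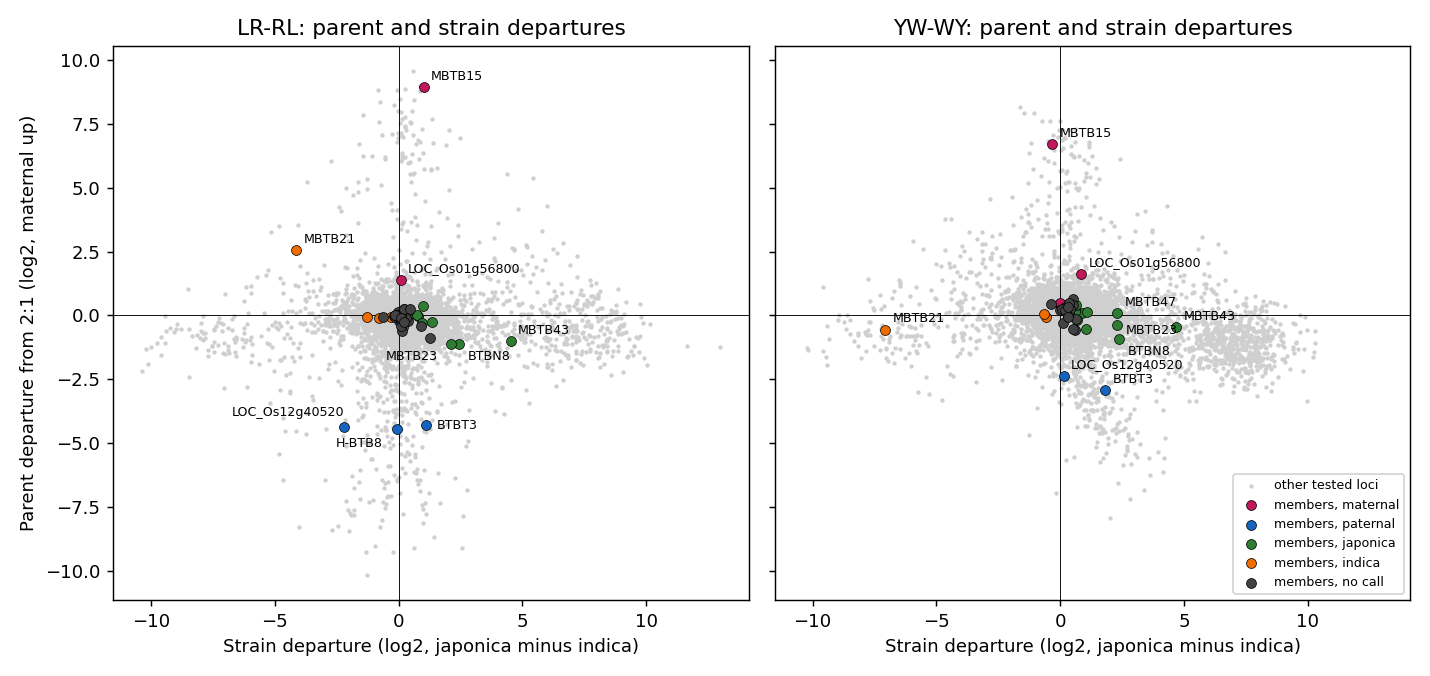
Parent departure (y axis, log2 relative to 2:1, maternal upwards) against strain departure (x axis, log2, japonica minus indica) for all tested loci (grey) and for the BTB and MATH domain loci coloured by call, in LR-RL (left) and YW-WY (right). MBTB15 stands at 8.93 and 6.71 on the parent axis with 1.03 and -0.32 on the strain axis, and MBTB43 stands at 4.54 and 4.68 on the strain axis.

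The largest strain effects were in MATH-BTB genes of a tandem group on chromosome 10 and of another on chromosome 8. The strain departure given here is positive where the japonica allele exceeds the 2:1 dosage, averaged over the 2 directions. Its median over all tested loci was 0.099 in LR-RL and 0.409 in YW-WY. MBTB43 on chromosome 10 was read almost only from the japonica allele, with maternal shares of 96.2% in LR and 3.67% in RL, and 97.6% in YW and 5.07% in WY. Its strain departure was 4.54 in LR-RL and 4.68 in YW-WY (adjusted p = 1.21e-15 and 1.38e-33, exact binomial tests). MBTB47, in the same group, had 81.1% in LR and 40.0% in RL, and 91.4% in YW and 30.4% in WY, with a japonica call in both pairs. MBTB51, the third tested gene of the group, had 76.5% in LR and 63.5% in RL, and 80.6% in YW and 62.7% in WY. It had a japonica call in YW-WY only. The 3 genes thus had unequal strain effects within 15138535 to 15246288.

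The tested genes of the group on chromosome 8 (7718778 to 7762203) were MBTB20, MBTB21, MBTB22 and MBTB23, whose alleles went in opposite directions. MBTB23 followed the japonica allele with 80.0% in LR and 17.3% in RL, and 88.3% in YW and 23.8% in WY. MBTB21, within the same group, followed the indica allele, with 39.8% in LR and 100% in RL, and 0% in YW and 100% in WY at 1 SNP. The 0 maternal reads of 49 in YW allow a share of up to 6.12%, and the 0 paternal reads of 102 in RL and of 91 in WY allow up to 2.94% and 3.30%. MBTB22 was japonica in both pairs with 83.7% in LR and 55.9% in RL, and 76.9% in YW and 58.8% in WY, and MBTB20 had no call. Reads of neighbouring copies that are alike in sequence can align to more than 1 locus. The sequences were not compared here, so the locus behind these counts is uncertain.

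Within MBTB22 the share in LR changed along the gene. Its first SNP, at 7756811, had 94.4% maternal reads in LR and its last, at 7758067, had 75.5%, and over the 38 SNPs the share ran from 69.9% to 96.2% in LR and from 37.7% to 73.8% in RL. MBTB23 was more even, from 72.8% to 88.2% in LR at its SNPs with at least 20 reads in both crosses. SNPs of MBTB47 ran from 63.3% to 95.5% in LR and from 28.1% to 57.9% in RL. A summed share of these genes is thus an average over unlike positions.

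**Figure D4:**
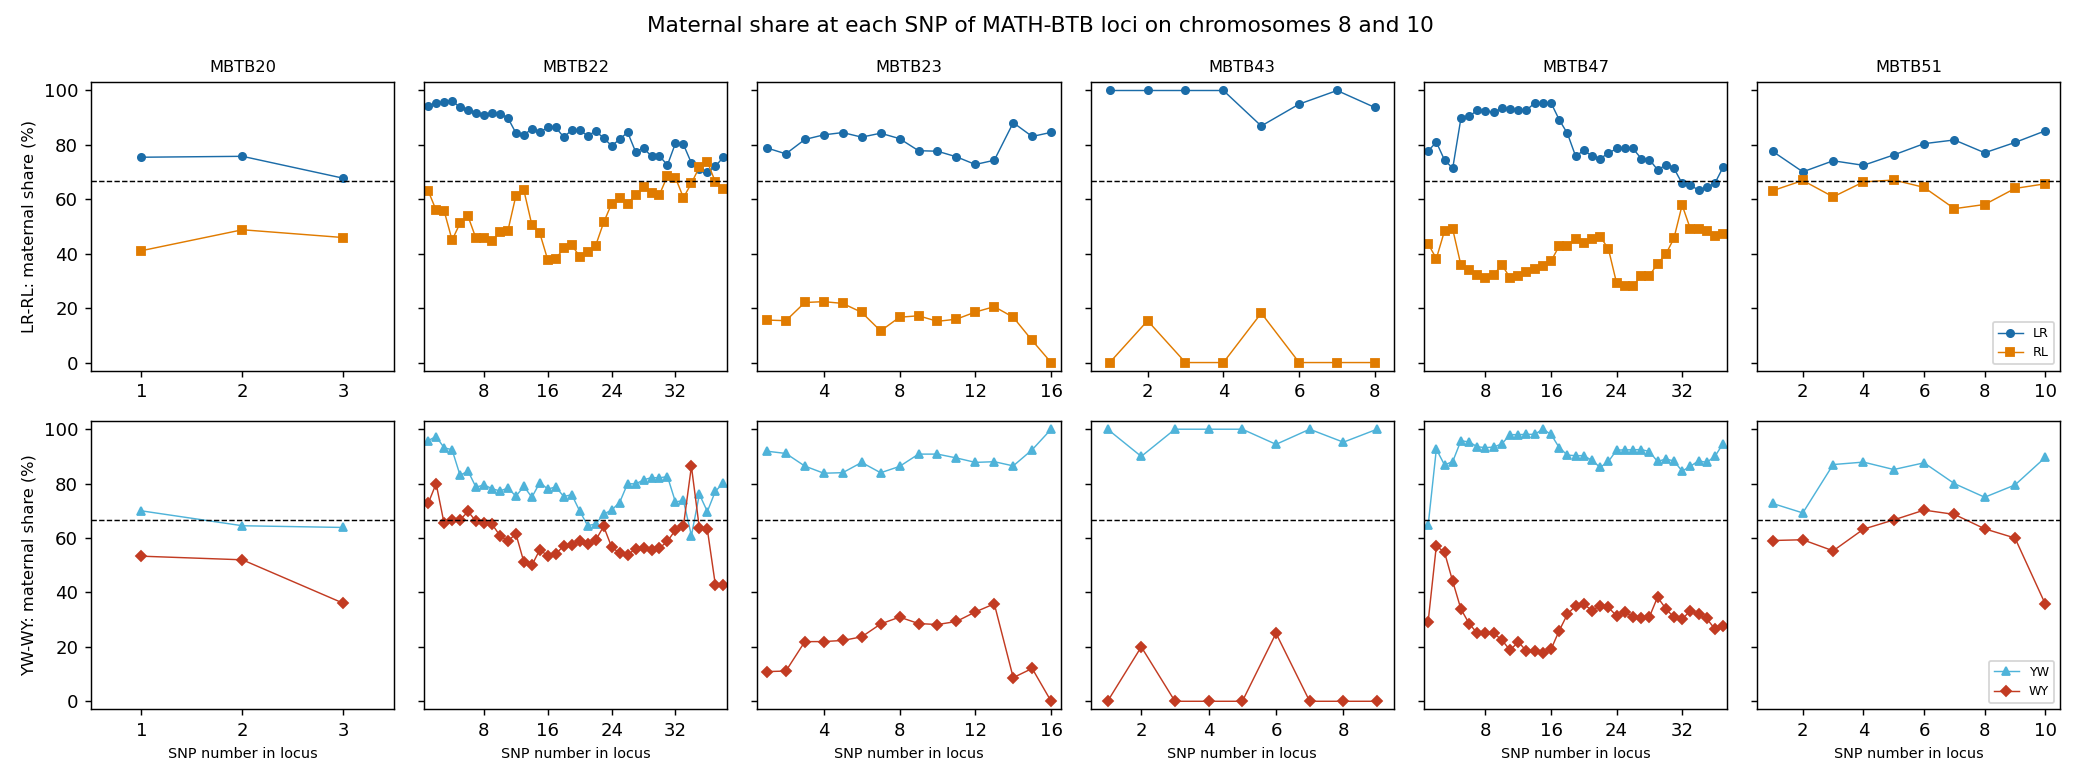
Maternal share (y axis, %) at each SNP (x axis, numbered along the chromosome) of 6 MATH-BTB loci of the groups on chromosomes 8 and 10, with LR and RL in the upper row and YW and WY in the lower row, and a dashed line at 66.7%. MBTB43 and MBTB23 keep the 2 directions of a cross far apart at nearly every SNP, while in MBTB22 the LR share goes from 94.4% at its first SNP to 75.5% at its last.

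Outside the MATH-BTB genes, japonica calls in both pairs included 2 genes with an NPH3 domain. BTBN8 had 83.7% in LR and 14.6% in RL, and 84.6% in YW and 16.7% in WY, so that the japonica allele gave between 83.3% and 85.4% of reads whichever parent carried it. BTBN17 had 75.8% in LR and 46.1% in RL, and 82.5% in YW and 50.7% in WY. BTBN23, also with an NPH3 domain, had 72.1%, 31.1%, 74.4% and 40.5%, with a japonica call in YW-WY only. In the indica direction, C2-BTB1 was called in both pairs, with 51.6% in LR and 76.4% in RL, and 57.5% in YW and 76.5% in WY. The TAZ gene BTBZ4 had much the same pattern, 55.7% in LR and 74.5% in RL, and 55.9% in YW and 74.2% in WY, and was called in YW-WY only. BTBZ3, another TAZ gene, had 44.1% in LR and 82.8% in RL from 1 SNP and was called indica in LR-RL, as was H-BTB2 with 60.5% and 70.3%. Neither had a call in YW-WY, where BTBZ3 had 67.7% in YW and 78.2% in WY, and H-BTB2 had 75.8% and 64.4%, on the japonica side. BTBZ1, the third TAZ gene, was japonica in both pairs, with 77.1% in LR and 53.7% in RL, and 79.6% in YW and 53.4% in WY.

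Strain calls were partly shared between the pairs of crosses. Of the 45 members tested in both, 8 had japonica calls in both, which is 88.9% of those in LR-RL and 44.4% of those in YW-WY, and 2 had indica calls in both, which is 50% and 66.7%. Over all 9753 loci tested in both pairs the shares were 80.3% and 50.9% for japonica calls and 33.9% and 80.8% for indica calls. Over these 45 loci the strain departures of the pairs correlated with Pearson's r at 0.88 and Spearman's rho at 0.70, and the parent departures at 0.93 and 0.47. Without MBTB15 the values for the parent departures were 0.80 and 0.44 over 44 loci. These are descriptions across loci that share libraries and, in each cross, the same median share. They also share positions, since 323 of the 371 SNPs of the 48 members in LR-RL are among their 348 in YW-WY.

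The parent departure differed between the pairs at 20 of 45 members by the Wald test, which covers counting error only. LR-RL was the more maternal at 2 members (background 3.74%), and YW-WY at 18 (background 39.2%). The median difference, LR-RL minus YW-WY, was -0.23 for members and -0.25 for all loci tested in both. With the median ratio of each cross as the null the numbers were 3 (background 12.3%) and 8 (background 12.2%). Among the 20, the difference was largest in size at LOC_Os12g40520, by -1.97, and BTBT3 by -1.38, both more paternal in LR-RL. At BTBT3 the maternal share of YW was 48.1%, and the median share of that cross was 75.1%. With the median ratio of each cross as the null, the difference at BTBT3 was -1.12 (adjusted p = 0.0348, Wald test). The cause of the difference was not tested.

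Members without a call had medians between 66.7% and the median locus of their cross, with a wide range. Loci near 66.7% are the ones left without a call, so this follows in part from the selection. In LR-RL the 27 ran from 55.7% to 76.5% in LR, with a median of 66.8%, and from 31.1% to 74.5% in RL, with a median of 65.2%. The lowest in RL were BTBN23 at 31.1% and MBTB20 at 45.0%, which had 72.1% and 74.0% in LR. In YW-WY the 18 ran from 63.5% to 81.7% in YW, with a median of 72.3%, and from 46.7% to 78.2% in WY, with a median of 66.1%. In both pairs, 14 members had no call. Both ankyrin genes, BTBA2 and ABB1, were without a call in LR-RL, and BTBA2 had a japonica call in YW-WY that was lost against the median ratio. A missing call does not show equal use of the alleles. The larger p of the pair was kept, so a locus close to the dosage in either cross had no call, however far the other lay. BTBN23 had 269 reads in LR and 270 in RL, and MBTB20 had 146 and 211. Their Wilson intervals in LR, 66.5 to 77.1 and 66.3 to 80.4, include the dosage. Few reads also limit a call, and the least covered members had fewer than 100 reads in a cross.

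Genes of cullin ligases and of their regulators were called in the same way. By annotation words, 12 genes for cullins, NEDD8 enzymes and subunits of the COP9 signalosome were tested in LR-RL and 11 in YW-WY. No annotation among them names CUL3, and LOC_Os01g70920 is annotated as cullin-1. The list is thus not limited to partners of BTB proteins. None had a maternal call. Any parental call was made at 8.77% of all tested loci for LR-RL and 9.59% for YW-WY. So few genes cannot show a difference from those shares. The only paternal call was COP9 signalosome subunit 8 (LOC_Os04g34930), part of the complex that removes NEDD8 from cullins, with 61.1% in LR and 57.2% in RL (adjusted p = 0.0366, exact binomial test) and 67.8% and 62.3% in YW and WY with no call. It was no call against the median ratio of each cross. Japonica calls were made at 2 genes for LR-RL and at 3 for YW-WY, beside 20.1% and 32.1% of all tested loci, and each of them was lost against the median ratio. The cullin gene LOC_Os04g40830 was the farthest of these from the dosage, with 76.1% in YW and 50.9% in WY. The remaining 9 and 8 genes had no call.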

How the data were processed

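RNA was sequenced from endosperm of 4 hybrid crosses. In the deposited tables the authors give, per SNP, whole-number counts of reads with the maternal and the paternal allele in each cross, with replicates pooled. Their deposited p-value columns, with false discovery rates, are used here only where named. GATK 3.5, SAMtools 0.1.16, Bowtie2 2.2.1 and Trimmomatic 0.32 are the tools in the submitters' processing notes, in no stated order. No label or header names a genome build. The 5 inbred control libraries (3 of Liuqianxin, 2 of Rongfeng) have no columns in these tables and were not used here, and 8 other columns (coverage by reference and alternative allele, and ratios), which per the file headers also hold 1 value per cross and none per replicate, were left out.

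Counts were summed over the SNPs of a locus, so a read covering several SNPs is counted at each and the tests can understate even counting error. Each SNP has at least 11 reads in each cross. Binomial and Wald tests (scipy 1.17.1) compare these pooled libraries and not plants. The joint fit used edgeR 4.0.16 in R 4.3.3 with an offset for 2:1 and a common dispersion, and DESeq2 1.42.0 as an alternative. P-values were adjusted over all loci tested, and the scripts were tested on simulated data.

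The members and lists were chosen with earlier results of these data known. Named with values were MBTB15, every member with a parental call, the 5 members with the largest japonica and indica departures per pair, those with the highest and lowest share in each cross, and up to 3 tested neighbours on each side of strong loci. Other members are named to complete a domain class or a tandem group, and MBTB20, MBTB51, BTBZ1, BTBT2, H-BTB9, E1-BTB1, BTBA2 and ABB1 were so chosen after their values were seen. The alternatives were the median ratio of each cross as the null, the SNP with most counts, other minimums, SNPs in both tables, other joint fits and another added count.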

Additional observations from a re-analysis of the deposited data

Results flagged for a closer look

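The parent departure differed between LR-RL and YW-WY by the Wald test on the counts at 20 members, given here as LR-RL minus YW-WY on the log2 scale. The median over all loci tested in both pairs was -0.25, so a negative value of about that size is the typical locus. No replicate enters the test.

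Among the members far from 2:1, LOC_Os12g40520 differed by -1.97 (adjusted p = 1.29e-06, Wald test) and BTBT3 by -1.38 (adjusted p = 0.00386). Both kept an adjusted p under 0.05 with each cross's median ratio as the null, at 6.97e-05 and 0.0348.

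Among the MATH-BTB genes the difference was -0.741 at MBTB23, -0.595 at MBTB12, -0.403 at MBTB14, -0.345 at MBTB47, -0.313 at MBTB7 and 0.228 at MBTB22. MBTB22 was thus the more maternal in LR-RL, and against the median ratio its difference was 0.48 (adjusted p = 1.26e-16, Wald test). Against that null MBTB47 (-0.091) and MBTB7 (-0.058) no longer passed, while MBTB23, MBTB12 and MBTB14 still passed.

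Among the genes with an NPH3 or TAZ domain it was -0.752 at BTBN25, -0.43 at BTBN17 and -0.0985 at BTBZ1. For BTBZ1 the sign against the median ratio was the opposite, 0.16 (adjusted p = 0.000343, Wald test). BTBN25 then no longer passed, at -0.497 (adjusted p = 0.0994, Wald test), while BTBN17 still passed.

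Among the other BTB genes it was -0.849 at BTB1, -0.509 at E1-BTB2, -0.44 at BTBT2, -0.409 at H-BTB6, -0.302 at ABTB1, -0.25 at H-BTB4, -0.216 at E1-BTB1, -0.214 at B4-BTB4 and 0.468 at C3-BTB1. C3-BTB1 and MBTB22 were the 2 members more maternal in LR-RL. Against the median ratio C3-BTB1 differed by 0.72 (adjusted p = 9.26e-06, Wald test), while BTBT2, H-BTB6, ABTB1, H-BTB4, E1-BTB1 and B4-BTB4 no longer passed. Of these, E1-BTB1 (0.04), B4-BTB4 (0.04) and H-BTB4 (0.0043) then had the opposite sign.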

How the results depend on the processing

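No paired analysis was possible because the authors pooled the replicates and the columns carry no replicate numbers, and no replicate could be left out for the same reason. The use of SNPs in both tables only and the joint fit without YW, which also takes 1 strain effect for both pairs, were chosen after seeing the data. Against the median ratio the difference between pairs changed sign at BTBZ1, E1-BTB1, B4-BTB4 and H-BTB4, as given above, while no parent departure recomputed here reversed. Of the values recomputed 60 counts or shares stayed within 1.5 times or the interval. For single genes, 81 departures kept their side of the threshold, while 25 lost it in the same direction. Another minimum leaves the counts and departure of a tested gene unchanged, and only the adjustment over loci differs. SNPs in both tables also change nothing where all SNPs of a gene are shared, as at MBTB15. Such cases are among the 81, so that number is no measure of robustness. With only the SNP with most counts, LR-RL had 1 maternal, 3 paternal and 5 japonica calls among members (2, 5 and 9 in the report), and YW-WY had 3 maternal and 7 japonica calls (5 and 18). This setting uses fewer reads. LR-RL was then more maternal at 1 member (2) and YW-WY at 9 (18), and the share of MBTB15 was 100% in RL, 100% in YW and 98.4% in WY. With the median ratio as the null, LR-RL had 7 indica calls (4), and YW-WY had 2 maternal (5) and 8 japonica (18) calls. YW-WY was then more maternal at 8 members (18), and 0 of the cullin-ligase genes were paternal in LR-RL (1). With at least 100 counts, which tests fewer loci, LR-RL had 3 paternal (5) and 2 indica (4) calls. At 3 times from 2:1, YW-WY had 1 strong paternal call (0). In the joint fit, maternal calls numbered 2 with 1 strain effect and 1 with 1 strain effect and YW left out (3), and paternal calls numbered 2 with 1 strain effect, with YW in or out, and 2 in DESeq2 (5). The cause was not tested for the median ratio and the joint fits. Members with few reads limit what can be called: LOC_Os01g56800 in LR-RL had an adjusted p of 0.0811 (exact binomial test) from its most covered SNP, with a departure of 1.45, against 1.38 over all its SNPs.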
